A study of Mus musculus with 8 samples.

Results

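The genes described here encode the aminoacyl-tRNA synthetases of the mouse. They were chosen by name, without any measured value, from the protein-coding genes of the GENCODE M1 annotation of mouse build mm9, and 36 of 22232 genes are described. Of these, 20 encode cytosolic enzymes (Aars, Cars, Dars, Eprs, Farsa, Farsb, Gars, Hars, Iars, Kars, Lars, Mars, Nars, Qars, Rars, Sars, Tars, Vars, Wars and Yars). The other 16, whose names end in 2, encode mitochondrial enzymes (Aars2, Cars2, Ears2, Fars2, Hars2, Iars2, Lars2, Mars2, Nars2, Pars2, Rars2, Sars2, Tars2, Vars2, Wars2 and Yars2). The positions of E2f3 and Myc, both transcription factors, were mapped by ChIP-exo-seq. In this assay chromatin is precipitated with an antibody and an exonuclease digests the DNA as far as the crosslinked protein, which gives positions close to single bases. Libraries were made from intestinal crypt cells and villus cells of control mice and of Rb-deficient mice. The mice had a mixed background of C57BL/6, 129 and FVB/N, and Rb was deleted with Ah-cre, an inducible Cre recombinase specific to the intestine per the labels. Each combination of cell type, genotype and antibody (Santa Cruz antibodies against E2f3 or Myc) was 1 library, so 8 libraries made 8 groups. The number of mice, their ages and what the controls carried in place of the deletion are not stated in the labels used here, and no input library was used. Site positions do not measure Rb or any cell type marker, so the labelled genotypes and cell types could not be checked.

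Aminoacyl-tRNA synthetases join each amino acid to its tRNA and so supply every translating ribosome. Cytosolic and mitochondrial translation mostly use separate enzymes, both encoded in the nucleus, whereas Gars and Kars each encode the enzyme of both compartments. Several cytosolic enzymes are held together in the multi-synthetase complex, which is scaffolded by Aimp1, Aimp2 and Eef1e1. Myc is known for driving genes of cell growth and translation, and E2f3 for driving genes of the cell cycle under restraint by Rb. Crypts hold the dividing cells of the intestinal lining, and villi the differentiated ones. Many cytosolic synthetase genes are also known targets of Atf4, the transcription factor of the amino acid response.

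The following stretches of mm9, read on the plus strand, lie around the E2f3 sites that scored highest at these genes. They are shown because the site lies exactly at the centre of the E2F motif in some of them and no such motif is present in others. Capitals mark the E2F motif as searched here (TTCCCGC on either strand, with G allowed for each of the bases between TT and CGC). The first 6 follow a rule on the score, and Kars and Gars were added after their values were seen. Stretches in an exon of any gene are 29 bp long and the others 41 bp, with the site in the middle.
Sars2 (chr7:29526951-29526991): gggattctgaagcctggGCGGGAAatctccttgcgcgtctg
Vars (chr17:35137765-35137793): gggctttcgttTTCCCGCgctctagacac
Pars2 (chr4:106323529-106323569): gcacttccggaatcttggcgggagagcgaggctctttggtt
Yars (chr4:128867225-128867253): gccggctgagcGCGGGAAacagagacagc
Mars2 (chr1:55293876-55293916): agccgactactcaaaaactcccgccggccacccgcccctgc
Iars (chr13:49778326-49778366): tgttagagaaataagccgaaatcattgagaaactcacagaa
Kars (chr8:114535020-114535060): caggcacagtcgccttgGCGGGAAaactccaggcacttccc
Gars (chr6:54987906-54987946): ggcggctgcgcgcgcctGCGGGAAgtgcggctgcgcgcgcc

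The next stretches lie around the Myc sites that scored highest at these genes in Rb-deficient crypt. They are shown because the E-box CACGTG, the sequence bound by Myc with Max, is present in some and not in others. Capitals mark it.
Ears2 (chr7:129210501-129210529): cccgagggccacCACGTGcggctcggcca
Vars (chr17:35138092-35138120): agagctgcctccgctgcccgccacctcca
Tars (chr15:11329378-11329406): tgcgcgtgcgcCACGTGgccacaggcgga
Iars (chr13:49778331-49778371): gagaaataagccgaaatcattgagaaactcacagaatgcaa

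Each library is a list of 1-bp binding events with the authors' score, which runs from 2 to a cap of 999. What the score measures is not stated and lists are not stated to share a scale, so the plot of best sites gives each site's place within its own list, and the text gives it for the genes that stood highest. Scores of different libraries were set against each other only to choose the stretches shown above and in an alternative setting. That setting kept sites with scores of at least 10 in every list, whatever its scale. For E2f3, control crypt had 32666 sites and Rb-deficient crypt 27396, and control villus had 7405 and Rb-deficient villus 14843. For Myc the numbers were 159181, 31397, 7223 and 4119. Sequencing depth is unknown, the lists differ in length, and with 1 library per group nothing could be tested between groups. Shares carry exact 95% binomial (Clopper-Pearson) intervals, which cover counting error over genes only. A gene is called bound here when a listed site lay no further than 1 kb from one of its start sites. Where divergent genes share a site, each of them is called bound.

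In the full lists, E2f3 and Myc sites lay at the start sites of many synthetase genes in crypt, at a larger share than over all genes, and no Myc site was listed there in villus. With the control crypt list shortened to 4119 or to 7223 sites, no Myc site was left at these genes there either. Shortened to the 31397 sites of the Rb-deficient crypt list, it still had one at Hars, Hars2, Iars, Mars2, Rars and Vars. E2f3 was present at 12 of the 36 genes in control crypt (33.3%, interval 18.6% to 51%), beside 14.6% of all protein-coding genes. It was present at 16 in Rb-deficient crypt (44.4%, interval 27.9% to 61.9%), beside 20.2%. In control villus it was present at 6 (16.7%, interval 6.37% to 32.8%), beside 4.47%, and in Rb-deficient villus at 10 (27.8%, interval 14.2% to 45.2%), beside 12.4%. In each of these 4 libraries the interval lay above the share over all genes. With every list shortened to its 4119 highest-scored sites, the number in the shortest of the 8 lists, the E2f3 shares were 8.33% and 13.9% in control and Rb-deficient crypt and 13.9% and 16.7% in control and Rb-deficient villus. The shares over all genes were then 3.23%, 5.02%, 2.77% and 4.62%. The Myc share was 0% in control crypt, beside 0.531% of all genes, and 8.33% in Rb-deficient crypt, beside 1.01%. Myc was present at 18 genes in control crypt (50%, interval 32.9% to 67.1%), beside 17.2%, and at 11 in Rb-deficient crypt (30.6%, interval 16.3% to 48.1%), beside 8.28%. No synthetase gene had a Myc site in the control villus list, where 0.738% of all genes had one, or in the Rb-deficient villus list, where 0.423% had one. With the control crypt list shortened to the 7223 sites of control villus, no synthetase gene had a Myc site in either. With the Rb-deficient crypt list shortened to the 4119 sites of Rb-deficient villus, 3 genes (Ears2, Tars and Vars) had one in crypt only and 0 in villus, beside 63.3% of all genes bound in either that were in crypt only.

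Over the E2f3 libraries together, 18 of the 36 genes had a site in at least 1 list, beside 24.1% of all genes. Over all 8 libraries 29 of the 36 had one, beside 35.1% of all genes. An E2f3 site in every E2f3 library was found at 3 genes, Sars2, Pars2 and Vars, beside 3.37% of all genes. A further 6 (Cars2, Iars, Kars, Rars, Tars and Yars) had one in 3 of the 4 libraries. In 2 libraries there were 5 (Cars, Fars2, Farsb, Lars and Mars2), and in 1 there were 4 (Dars, Gars, Hars and Hars2). The shares of all genes with a site in 3, 2 or 1 libraries were not computed, so these counts are not shown to differ from them.

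**Figure D1:**
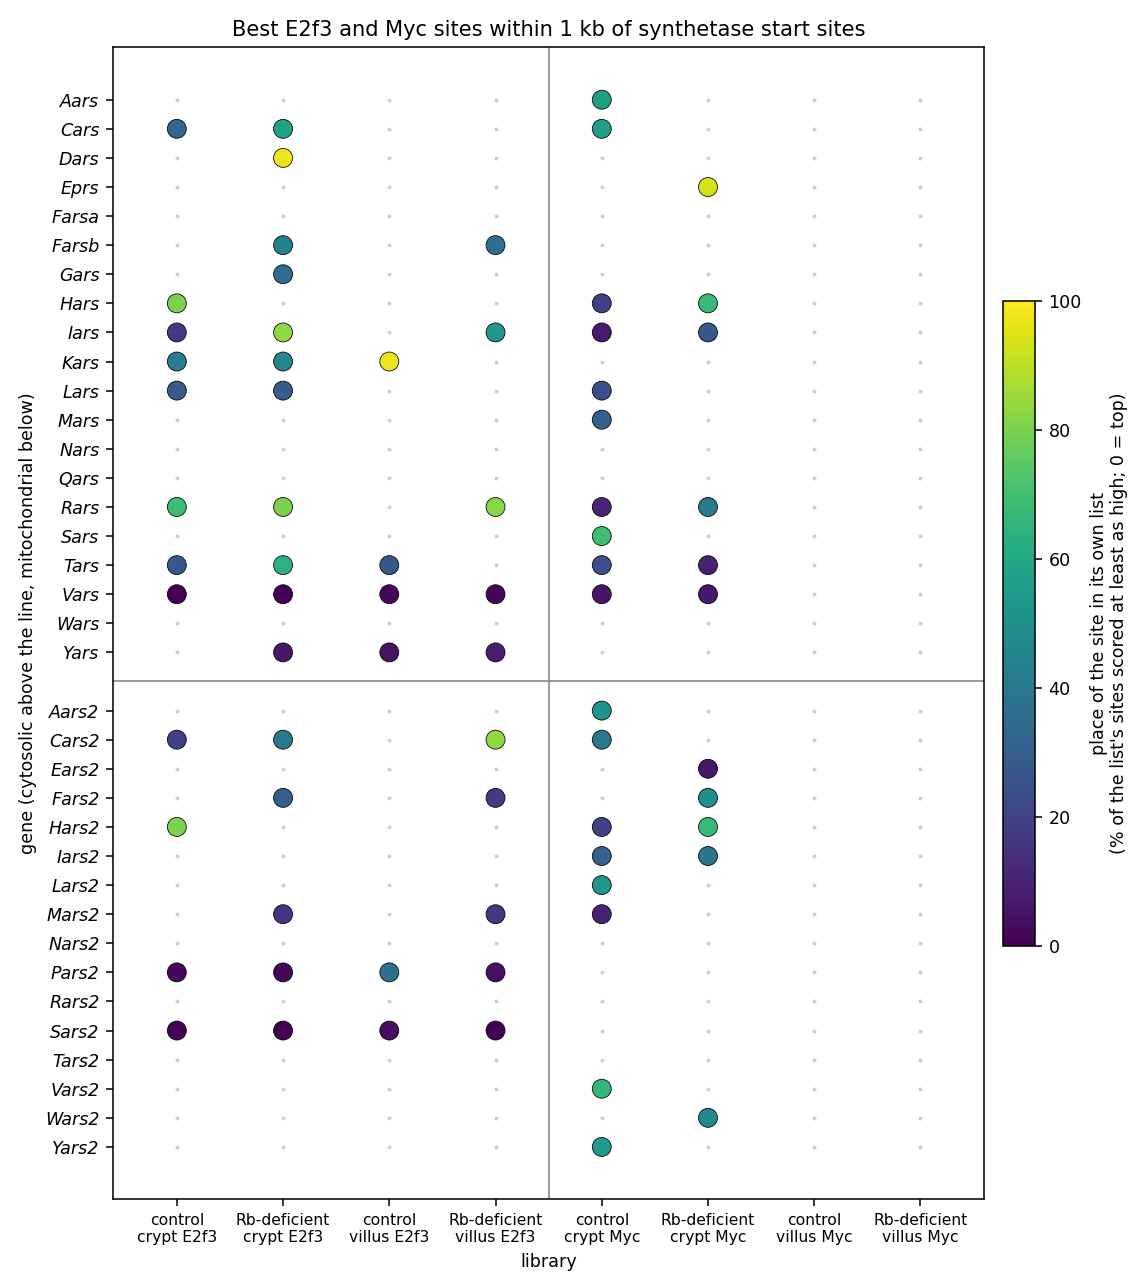
Best site of each of the 36 genes (rows), up to 1 kb from a start, in each of the 8 libraries (columns). A circle marks a listed site, its colour gives the percentage of that list's sites that scored at least as high (dark is near the top), and a small grey point marks no site. Sars2 and Vars are dark in all 4 E2f3 columns, and both villus Myc columns are empty.

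Sars2, the mitochondrial seryl-tRNA synthetase, had the highest-scored E2f3 site of the family in both crypt libraries and in Rb-deficient villus. Its site scored 999, the cap, in both crypt libraries, a score shared by 70 sites of the control list and 125 of the Rb-deficient list. Of the villus scores the control one was 55.51 and the Rb-deficient one 189.54, and these values place it in the top 3.36% and the top 0.492% of the lists. The site lay at the same base in all 4 libraries, 39 bp upstream of the Sars2 start and at the centre of the motif printed above. Sars2 shares this promoter with Mrps12, which encodes a protein of the small mitochondrial ribosomal subunit and is transcribed in the other direction from a start 171 bp away. One site therefore counts for both genes, and the Myc lists had no site this close to Sars2 (1 kb or less).

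Vars, the cytosolic valyl-tRNA synthetase, had an E2f3 site 153 bp upstream of its start that scored 309.84 in crypt and 71.6 in villus of control mice, and 269.84 in crypt and 93.45 in villus of Rb-deficient mice. It lay in the top 0.22%, 2.24%, 0.61% and 1.44% of those lists, at the same base each time and again at the motif's centre. The nearest start belongs to the divergent gene D17H6S56E-5, 40 bp away, and the site lies in that gene's 5′ untranslated region. A lower-scored E2f3 site lay between 332 and 373 bp downstream of an alternative start further inside Vars. It scored 19.53 in control crypt, 14.73 in Rb-deficient crypt and 5.05 in Rb-deficient villus, with none in control villus.

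Pars2, the mitochondrial prolyl-tRNA synthetase, had an E2f3 site 125 bp upstream that scored 107.06 in crypt and 11.09 in villus of control mice, and 137.36 in crypt and 47.96 in villus of Rb-deficient mice. The place in the list was the top 2.09%, 37.6%, 1.62% and 3.98%, so the control villus site was the one that did not stand near the top. The stretch printed above has no E2F motif as searched here, although the site lay at the same base in all 4 libraries. It holds the letters ggcggga, which are part of the wider pattern used as an alternative.

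Among the genes with an E2f3 site in 3 libraries, Yars, the cytosolic tyrosyl-tRNA synthetase, ranked highest. Its site lay 200 bp inside the gene, in coding sequence and at the centre of the motif, and scored 60.05 in Rb-deficient crypt, 42.62 in control and 30.32 in Rb-deficient villus. Each of these lay in the top 8.21% of its list or higher. The control crypt list had no site there, although it is the longest E2f3 list, and its nearest E2f3 site to a Yars start lay 1491 bp downstream with a score of 28.21. Yars shares its promoter with S100pbp, whose start lies 33 bp away.

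Kars encodes the lysyl-tRNA synthetase of both compartments and a member of the multi-synthetase complex. Its E2f3 site lay 126 bp downstream of a start, in an intron. It scored 13.06 in control crypt, 11.15 in Rb-deficient crypt and 2.38 in control villus, with none in Rb-deficient villus. The control villus value stood at the bottom of its list, with 97.2% of sites scored at least as high. The base was the same in all 3 libraries and lay at the centre of the E2F motif.

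Tars, the cytosolic threonyl-tRNA synthetase, had E2f3 sites in an intron that scored 19.85 in control crypt, 7.11 in Rb-deficient crypt and 14.37 in control villus. The control sites lay 403 bp and the Rb-deficient crypt site 434 bp from the start, and only the last lay at the motif's centre. Cars2, the mitochondrial cysteinyl-tRNA synthetase, had its best site 87 bp upstream in control crypt (26.33). In Rb-deficient crypt (12.91) and Rb-deficient villus (3.47) the best site lay 287 bp downstream of a start, each position with an E2F motif at its centre. In Rb-deficient crypt the upstream site was also listed, with a score of 9.55.

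Iars and Rars, the isoleucyl- and arginyl-tRNA synthetases of the complex, differed from these genes in that their sites lay far inside the gene, in introns, without an E2F motif within 50 bp. The E2f3 site of Iars scored 29.19 in control crypt, 4.21 in Rb-deficient crypt and 6.74 in Rb-deficient villus, between 786 and 838 bp from a start. That of Rars scored 6.67, 4.62 and 3.53 in the same libraries, between 927 and 965 bp. Both genes had Myc sites at nearly the same positions in both crypt libraries. By contrast the best sites of Sars2, Vars, Pars2, Yars, Kars, Cars and Mars2 did not move by a single base between the E2f3 libraries that listed them. Their span was 0 bp, beside 52 bp for Iars and 38 bp for Rars. Shifts were also seen at other genes, with spans of 401 bp at Cars2, 46 bp at Lars, 31 bp at Tars, 14 bp at Farsb and 7 bp at Fars2.

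**Figure D2:**
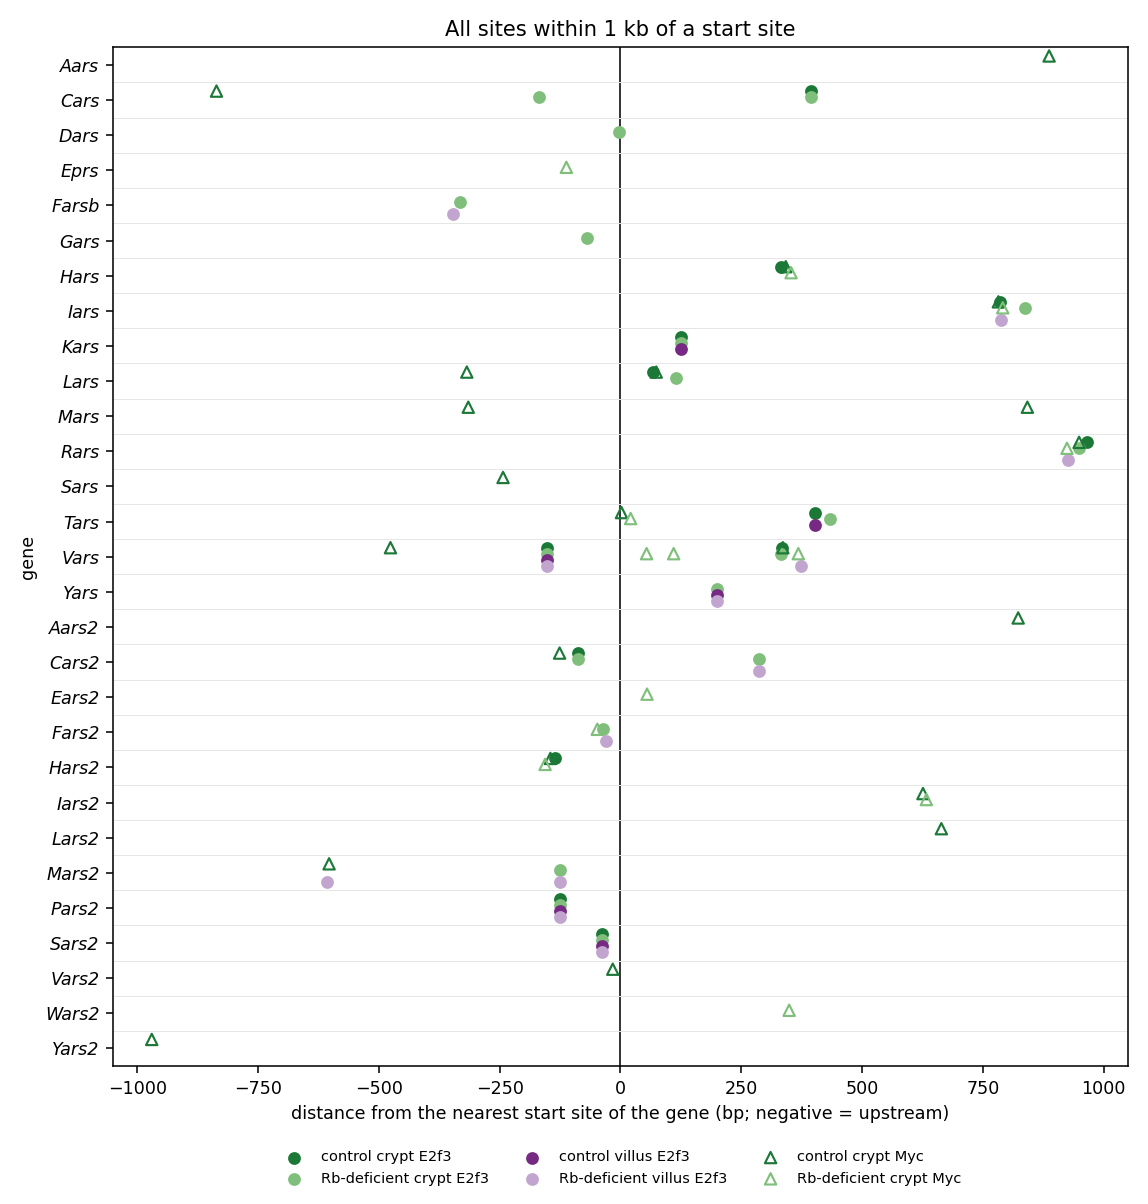
Distance of every listed site from the nearest start site of its gene (bp, negative is upstream) for the 29 genes with a site. Filled circles are E2f3 sites, open triangles Myc sites, and colours give genotype and cell type, with the libraries of a gene set slightly apart in height. The circles of Sars2, Pars2, Kars and Yars stand in vertical stacks, and those of Iars and Rars lie beside the Myc triangles.

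Of the 8 genes of the multi-synthetase complex (Dars, Eprs, Iars, Kars, Lars, Mars, Qars and Rars), E2f3 was present at 4 in crypt and 1 in villus of control mice, and 5 in crypt and 2 in villus of Rb-deficient mice. Of the 12 cytosolic genes outside it, the counts were 4, 3, 6 and 3 in that order. The shares were 50%, 12.5%, 62.5% and 25% in the complex and 33.3%, 25%, 50% and 25% outside it. Over all genes they were 14.6%, 4.47%, 20.2% and 12.4%. Lars, the leucyl-tRNA synthetase, had E2f3 sites of 19.51 in control and 18.48 in Rb-deficient crypt, 68 and 114 bp downstream of a start. Dars, the aspartyl-tRNA synthetase, had a single site, 4 bp upstream in Rb-deficient crypt, with a score of 2.34, near the lowest listed. Eprs, which encodes a glutamyl-prolyl enzyme, and Mars, the methionyl enzyme, had no E2f3 site. Qars, the glutaminyl enzyme, had no site with either antibody.

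Outside the complex, Cars, the cytosolic cysteinyl enzyme, had an E2f3 site 394 bp downstream of a start in control crypt (16.51) and Rb-deficient crypt (8.4). Farsb, a subunit of the cytosolic phenylalanyl enzyme, had one 333 bp upstream in Rb-deficient crypt (11.93) and 347 bp upstream in Rb-deficient villus (9.89), and in neither control library. Farsa, the other subunit of that enzyme, had none. Gars, which supplies glycyl-tRNA in both compartments, had a single E2f3 site, 69 bp upstream in Rb-deficient crypt (14.77), at the centre of the motif printed above.

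Among the mitochondrial genes, Mars2, the methionyl enzyme, had E2f3 sites 125 bp upstream in both Rb-deficient lists and in neither control list, with scores of 31.55 in crypt and 18.72 in villus. Its stretch holds no E2F motif as searched here, although, like that of Pars2, it holds ggcggga of the wider pattern, here on the other strand. A further site of Rb-deficient villus (6.39) lay 608 bp upstream, near the control crypt Myc site of Mars2 at 603 bp. Fars2, the phenylalanyl enzyme, likewise had sites only in the Rb-deficient lists, 37 bp upstream in crypt (17.78) and 30 bp upstream in villus (17.87), without the motif. It shares a promoter with Lyrm4, a gene of iron-sulfur cluster assembly whose start is nearer to these sites.

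The intervals of cytosolic and mitochondrial genes overlapped in every library with a site at any of them. E2f3 was present at 8 of 20 cytosolic and 4 of 16 mitochondrial genes in control crypt, or 40% (interval 19.1% to 63.9%) and 25% (7.27% to 52.4%). In Rb-deficient crypt the counts were 11 and 5, or 55% (31.5% to 76.9%) and 31.2% (11% to 58.7%), and in control villus they were 4 and 2. In Rb-deficient villus the order turned, with 5 cytosolic genes (25%, interval 8.66% to 49.1%) and 5 mitochondrial ones (31.2%, 11% to 58.7%). Myc was present at 10 cytosolic and 8 mitochondrial genes in control crypt, 50% of each group, and at 6 and 5 in Rb-deficient crypt, 30% and 31.2%. The E2f3 order of the compartments in crypt turned with the setting. Within 250 bp, control crypt had 15% of cytosolic and 25% of mitochondrial genes. With 4119 sites per list the shares were 5% and 12.5% in control crypt and 10% and 18.8% in Rb-deficient crypt, and with scores of at least 10 they were 30% and 31.2% in Rb-deficient crypt. In Rb-deficient villus both were 25% when a site was given to the nearest gene alone.

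**Figure D3:**
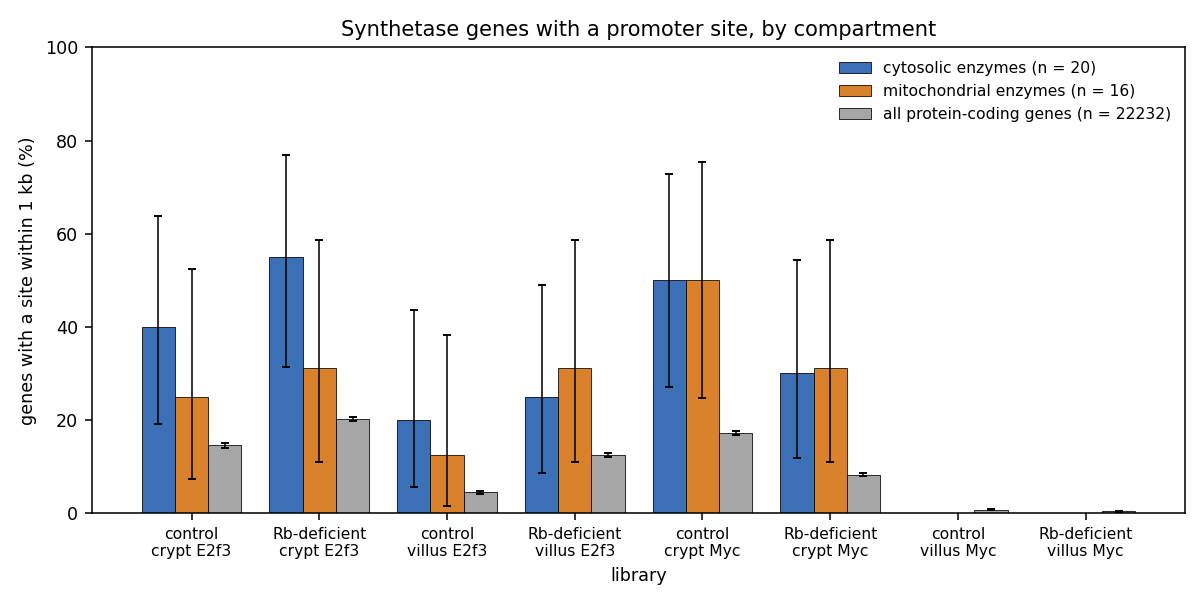
Percentage of cytosolic enzyme genes (20), mitochondrial enzyme genes (16) and all protein-coding genes (22232) bound (a site no further than 1 kb from a start), by library. Error bars are exact 95% binomial intervals over genes and are left out where the count is 0. At this distance and with all sites, the cytosolic bar is the higher of the pair in both crypt E2f3 libraries and the lower in Rb-deficient villus E2f3, with overlapping error bars in each. The crypt order turns with shortened lists.

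For 14 amino acids a cytosolic and a mitochondrial gene were paired by name, with Farsa taken for the cytosolic phenylalanyl enzyme. In control crypt E2f3 both genes were bound for 2 of these pairs, the cytosolic one alone for 5, the mitochondrial one alone for 1 and neither for 6. In Rb-deficient crypt E2f3 the counts were 1, 6, 3 and 4, and in Rb-deficient villus E2f3 they were 0, 4, 4 and 6. In control villus E2f3 no pair had both, 3 had the cytosolic gene alone and 1 the mitochondrial gene alone. Control crypt Myc had both genes of 7 pairs, the cytosolic one alone for 3 and the mitochondrial one alone for 1. Rb-deficient crypt Myc had both of 2 pairs and 3 and 2 alone. Farsb, the other subunit of the phenylalanyl enzyme, had a site in both Rb-deficient E2f3 libraries, as had Fars2, so with Farsb in place of Farsa this pair would count as having both there. Eprs, which encodes the glutamyl-prolyl enzyme, was not paired with Ears2 or Pars2. Pars2 had a site in every E2f3 library and Eprs in none, so as a pair they would count as the mitochondrial gene alone there. Ears2 and Eprs each had a Myc site in Rb-deficient crypt, so that pair would count as having both there. One of the pairs with both was that of the histidyl enzymes, Hars and Hars2, whose divergent starts lie 26 bp apart, so that 1 site counts for both.

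Between genotypes in villus, more synthetase genes had an E2f3 site in the Rb-deficient list, as did more genes over all. Of 12 genes with a site in either list, 6 (Cars2, Fars2, Farsb, Iars, Mars2 and Rars) had it in the Rb-deficient list only, beside 66% of all genes bound in either. Kars and Tars, 2 of the 12, had it in the control list only, beside 5.54%. The remaining 4, Pars2, Sars2, Vars and Yars, had it in both, beside 832 of 2922 over all genes. With the Rb-deficient list shortened to the 7405 highest-scored sites, 3 genes (Fars2, Farsb and Mars2) were left in the Rb-deficient list only and Kars and Tars in the control list only, beside 46.6% and 15.8% of all genes. The mitochondrial genes had 3 in the Rb-deficient list only with all sites (Cars2, Fars2 and Mars2) and 2 at equal length (Fars2 and Mars2), and none in the control list only.

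In crypt, 18 genes had an E2f3 site in either genotype. Of these, 6 (Dars, Fars2, Farsb, Gars, Mars2 and Yars) had it in the Rb-deficient list only, beside 36.1% of all genes, and 2 (Hars and Hars2, by 1 shared site of score 4.78) in the control list only, beside 11.4%. The other 10 had it in both, beside 2663 of 5070 over all genes. At equal list length the same genes fell in each class, beside 43% and 8.04% of all genes. Fars2, Farsb and Mars2 were the 3 genes listed in the Rb-deficient list only in both cell types. The share of all genes in this class was not computed, so the 3 are not shown to differ from it.

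Between cell types, the full crypt lists reached more synthetase genes in both genotypes, and at equal length this held in Rb-deficient mice by 1 gene and turned in control mice by 1. In control mice 7 of 13 genes (Cars, Cars2, Hars, Hars2, Iars, Lars and Rars) had an E2f3 site in crypt only, beside 70.2% of all genes, and 1 (Yars) in villus only, beside 2.88%. At equal list length 2 genes were left in crypt only (Cars2 and Iars) and 3 in villus only (Kars, Tars and Yars), beside 28.5% and 23.2% of all genes. In Rb-deficient mice 6 of 16 genes (Cars, Dars, Gars, Kars, Lars and Tars) had it in crypt only, beside 43.3%, and 0 in villus only, beside 7.7%. At equal length 3 of 13 (Gars, Kars and Lars) were in crypt only, beside 21.1%, and 2 (Iars and Rars) in villus only, beside 24.4%. These comparisons share lists with those between genotypes and are not independent of them.

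Myc was found in crypt at synthetase genes of both compartments, at some in both genotypes and at others in 1 list only. Of 22 genes with a Myc site in either crypt library, 7 had it in both, beside 1093 of 4577 over all genes. The 7 were Hars, Hars2, Iars, Iars2, Rars, Tars and Vars. In the control list only there were 11 (Aars, Aars2, Cars, Cars2, Lars, Lars2, Mars, Mars2, Sars, Vars2 and Yars2), beside 59.8% of all genes. In the Rb-deficient list only there were 4 (Ears2, Eprs, Fars2 and Wars2), beside 16.3%. The control list is the longer by far, and with it shortened to the 31397 highest-scored sites only Mars2 was left in the control list alone, or 8.33% of the genes bound in either, beside 12.2% of all genes. Of the cytosolic genes Eprs and Tars, and of the mitochondrial genes Ears2, Fars2, Iars2 and Wars2, were then in the Rb-deficient list alone, or 50%, beside 60.5% of all genes.

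In Rb-deficient crypt the highest-scored Myc site was at Ears2, the mitochondrial glutamyl-tRNA synthetase. It scored 46.74, in the top 6.33% of the list. The site lay 55 bp downstream of a start, in coding sequence and at the centre of the E-box printed above. Ears2 had no site in the 7 other libraries, and its divergent partner Ubfd1 starts 119 bp away. Vars followed with 45.49, in its 5′ untranslated region 110 bp from a start and without an E-box within 50 bp. A further Vars site (26.24) lay 368 bp downstream of the alternative start, also without an E-box within 50 bp. The lowest-scored Vars site there (3.45) lay 54 bp downstream of a start and had an E-box within 50 bp. In control crypt the best Myc site of Vars scored 120.04 and lay 336 bp downstream of that alternative start, 1 bp from an E2f3 site of the same cells.

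Tars had Myc sites at its start in both crypt lists, 2 bp inside the gene in control crypt (31.21) and 21 bp inside in Rb-deficient crypt (38.02). The latter lay at the centre of the E-box and in the top 9.22% of its list, and the former lay in the top 23.9%. Iars had Myc sites of 96.96 in control and 17.47 in Rb-deficient crypt, 782 and 791 bp downstream of a start. Rars had sites of 71.09 and 12.06, at 949 and 924 bp. The histidyl pair had a site of 39.47 in control crypt and one of 6.47 in Rb-deficient crypt, and Iars2, the mitochondrial isoleucyl enzyme, had 23.18 and 12.57, at 626 and 633 bp.

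Another 3 genes had a Myc site in Rb-deficient crypt and only there among the Myc lists. Wars2, the mitochondrial tryptophanyl enzyme, had 10.27 at 349 bp inside the gene, Fars2 had 9.86 at 48 bp upstream and Eprs had 2.86 at 112 bp upstream. In control crypt the highest Myc scores outside the genes already given were 75.09 at Mars2, 603 bp upstream, and 31.06 at Lars, 318 bp upstream. Mars had 24.02, Cars2 17.31, Aars2 12.27, Lars2 11.97, Yars2 11.06, Cars 10.75, Aars 10.52, Vars2 8.07 and Sars 7.31. These cover alanyl, seryl, leucyl, valyl and tyrosyl enzymes, and the sites lay from 16 bp (Vars2) to 970 bp (Yars2) from a start.

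Both antibodies had a site at 9 synthetase genes in control crypt (25%, beside 5.55% of all genes) and at 5 in Rb-deficient crypt (13.9%, beside 4.45%). In control crypt the nearest E2f3 and Myc sites lay 1 bp apart at Vars, 4 bp at Iars, 6 bp at Lars, 9 bp at Hars and Hars2, 16 bp at Rars and 39 bp at Cars2. At Tars they lay 401 bp and at Cars 1264 bp apart. In Rb-deficient crypt they lay 11 bp apart at Fars2, 24 bp at Rars, 36 bp at Vars, 47 bp at Iars and 413 bp at Tars. The closely placed sites of Vars, Iars, Lars, Rars, the histidyl pair and Fars2 had neither an E2F motif nor an E-box within 50 bp. Those of Cars2 had an E2F motif. No input library was used here, so enrichment at these positions without an antibody was not tested.

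The E2F motif lay within 50 bp of the best E2f3 site at 6 of 12 synthetase genes in crypt and 5 of 6 in villus of control mice, and 9 of 16 in crypt and 4 of 10 in villus of Rb-deficient mice. The shares were 50%, 83.3%, 56.2% and 40%, beside 40.7%, 61.5%, 34.7% and 38.8% of the best sites of all genes. The intervals ran from 21.1% to 78.9%, 35.9% to 99.6%, 29.9% to 80.2% and 12.2% to 73.8%, and each included the share over all genes. In control villus the gene without the motif was Pars2. Of E2f3 sites with the motif within 50 bp, 81.2% in crypt and 88.1% in villus of control mice lay at its centre. In Rb-deficient mice these were 77% and 75.9%. Whether the caller used sequence to place events is not stated. A site at a motif's centre, or at the same base in several libraries, was therefore not taken as independent of the sequence there. An E-box was found within 50 bp of the best Myc site at 2 of 11 genes in Rb-deficient crypt, Ears2 and Tars (18.2%, interval 2.28% to 51.8%), beside 31.4% of all genes. In control crypt it lay near 1 of 18, Tars, beside 4.2%.

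Best E2f3 scores of the synthetase genes ran from 4.78 to 999 in control crypt, from 2.34 to 999 in Rb-deficient crypt, from 2.38 to 71.6 in control villus and from 3.47 to 189.54 in the Rb-deficient one. The median best E2f3 score was 19.68 in crypt and 28.49 in villus of control mice, and 13.84 in crypt and 18.3 in villus of Rb-deficient mice, beside 13.04, 10.12, 11.99 and 8.43 over the best sites of all bound genes. The median best Myc score was 23.6 in control and 12.06 in Rb-deficient crypt, beside 14.36 and 9.3.

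Of 5 promoter features read from the reference sequence and annotation, the Atf4 element had the widest gap between cytosolic and mitochondrial genes. In windows of 501 bp centred on the most upstream start, the element TGATGNAA was present on either strand in 8 of 20 cytosolic genes (40%, interval 19.1% to 63.9%) and in 0 of 16 mitochondrial genes (interval 0% to 20.6%), beside 5.2% of all protein-coding genes. The intervals overlapped by a small margin. The 8 were Cars, Eprs, Gars, Iars, Mars, Nars, Tars and Yars. At Gars and Tars it lay within 50 bp of a listed site, the E2f3 site of Gars and the Myc sites of Tars. A match is a description of the letters and not evidence of a bound factor.

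The E2F motif was present in 11 of the 36 windows (30.6%, interval 16.3% to 48.1%), beside 19.2% of all genes. Those at Ears2, Nars, Rars2 and Wars2 belong to genes without any E2f3 site. The E-box was present in 5 (Ears2, Farsb, Iars, Tars and Vars), beside 10.4%, and the variant CACGCG in 11, beside 18.5%. The E-box and this variant differ in 1 base and cannot start at the same base of a strand, although they may overlap. A divergent partner gene within 1 kb was annotated for 10 of the 36 (27.8%, interval 14.2% to 45.2%), beside 9.58% of all genes. Besides the partners already given these were Terf2ip (a telomere protein) for Kars, Orc3 (a subunit of the origin recognition complex) for Rars2 and Wdr25 for Wars. The windows were richer in GC and CpG than those of all genes, with a median GC content of 60.4% beside 57.3% and a median of 35 CpG beside 24, and the part of this in the counts of bound genes was not tested.

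**Figure D4:**
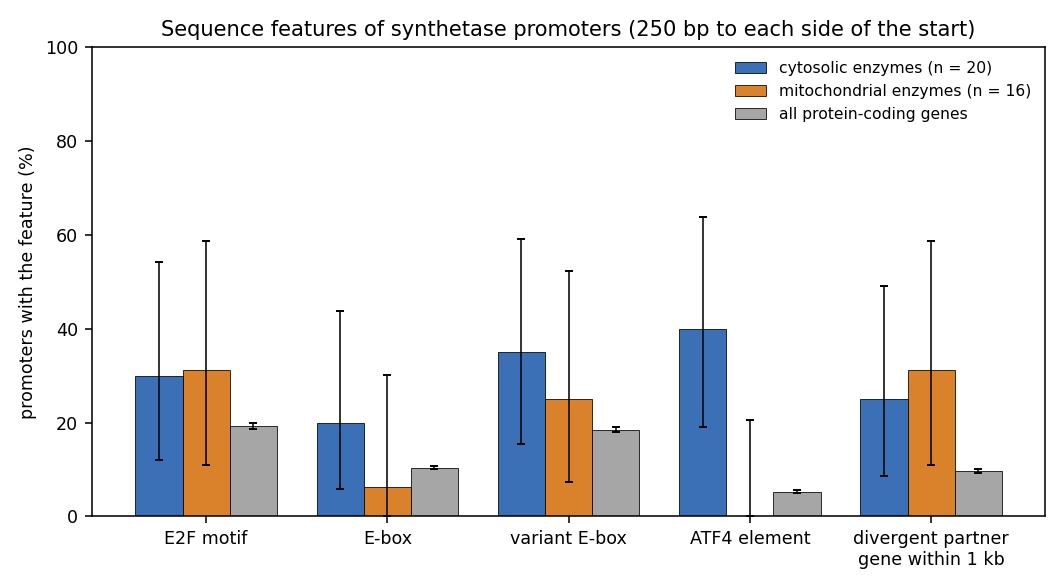
Percentage of promoters with each feature for cytosolic enzyme genes, mitochondrial enzyme genes and all protein-coding genes, in windows of 250 bp to each side of the most upstream start (the last feature is from the annotation). Error bars are exact 95% binomial intervals over genes. The Atf4 element is present in 40% of cytosolic and 0% of mitochondrial promoters.

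Of 17 other genes of tRNA charging, E2f3 was present at 1 in crypt and 0 in villus of control mice. In Rb-deficient mice it was present at 5 in crypt and 3 in villus. The shares were 5.88%, 0%, 29.4% and 17.6%, beside 14.6%, 4.47%, 20.2% and 12.4% of all genes. Myc was present at 4 in control crypt (23.5%, beside 17.2%), at 6 in Rb-deficient crypt (35.3%, beside 8.28%) and at none in villus. Dtd1, which removes D-amino acids from tRNA, had the highest E2f3 scores of the list in both crypt libraries. Its E2f3 site lay 20 bp downstream of a start and scored 75.77 in control crypt, 60.03 in Rb-deficient crypt and 5.45 in Rb-deficient villus. The Myc sites of Dtd1 scored 48.22 and 13.26 in the crypts. Of the scaffolds of the multi-synthetase complex, Aimp1 had Myc sites of 43.03 and 8.02 in the crypts, Aimp2 had E2f3 sites of 5.83 and 5.9 in the Rb-deficient libraries and a Myc site of 25.23 in Rb-deficient crypt, and Eef1e1 had none.

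Of 9 genes of the amino acid response, E2f3 was present at 2 in Rb-deficient crypt (Eif2ak4 and Shmt2). Each of the other E2f3 libraries had it at 1, Shmt2. Control mice thus had 11.1% in crypt and 11.1% in villus, beside 14.6% and 4.47% of all genes. Rb-deficient mice had 22.2% and 11.1%, beside 20.2% and 12.4%. The intervals (2.81% to 60% for the 22.2%, 0.281% to 48.2% for each 11.1%) included the share over all genes. Myc was present at 1 (Ddit3) in control crypt (11.1%, beside 17.2%). Shmt2, the mitochondrial enzyme that makes glycine from serine, had an E2f3 site 448 bp downstream of a start in all 4 libraries. It scored 64.06 and 11.92 in crypt and villus of control mice and 46.95 and 7.15 in those of Rb-deficient mice. Atf4 itself and its target Asns had no promoter site in the 8 lists.

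No site of either antibody lay within 1 kb of a start of 7 synthetase genes. These were Farsa, Nars, Qars and Wars (the asparaginyl, glutaminyl and tryptophanyl enzymes among them) of the cytosolic group and Nars2, Rars2 and Tars2 (asparaginyl, arginyl and threonyl) of the mitochondrial group. Nars2 lay just outside, with an E2f3 site 1260 bp upstream (19.26) and a Myc site 1263 bp upstream (68.84) in control crypt. The nearest site of Farsa was a Myc site at 1543 bp in control crypt. The sites just inside 1 kb were the control crypt Myc site of Yars2 at 970 bp (11.06) and the control crypt E2f3 site of Rars at 965 bp (6.67), and just outside lay a Myc site of Gars at 1130 bp in control crypt (2.84).

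The distance allowed moved the counts, and the synthetase share stayed above that of all genes at each distance in the 4 E2f3 and both crypt Myc libraries. Within 250 bp, E2f3 was present at 19.4% of the synthetase genes in crypt and 13.9% in villus of control mice, and 33.3% in crypt and 16.7% in villus of Rb-deficient mice, beside 9.12%, 2.69%, 14.6% and 8.9% of all genes. Within 5 kb the Myc share in control crypt reached 80.6%, beside 53.1%, and in Rb-deficient crypt 44.4%, beside 20.2%. The E2f3 count in control villus was the same at 500 bp as at 5 kb, 6 genes.

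**Figure D5:**
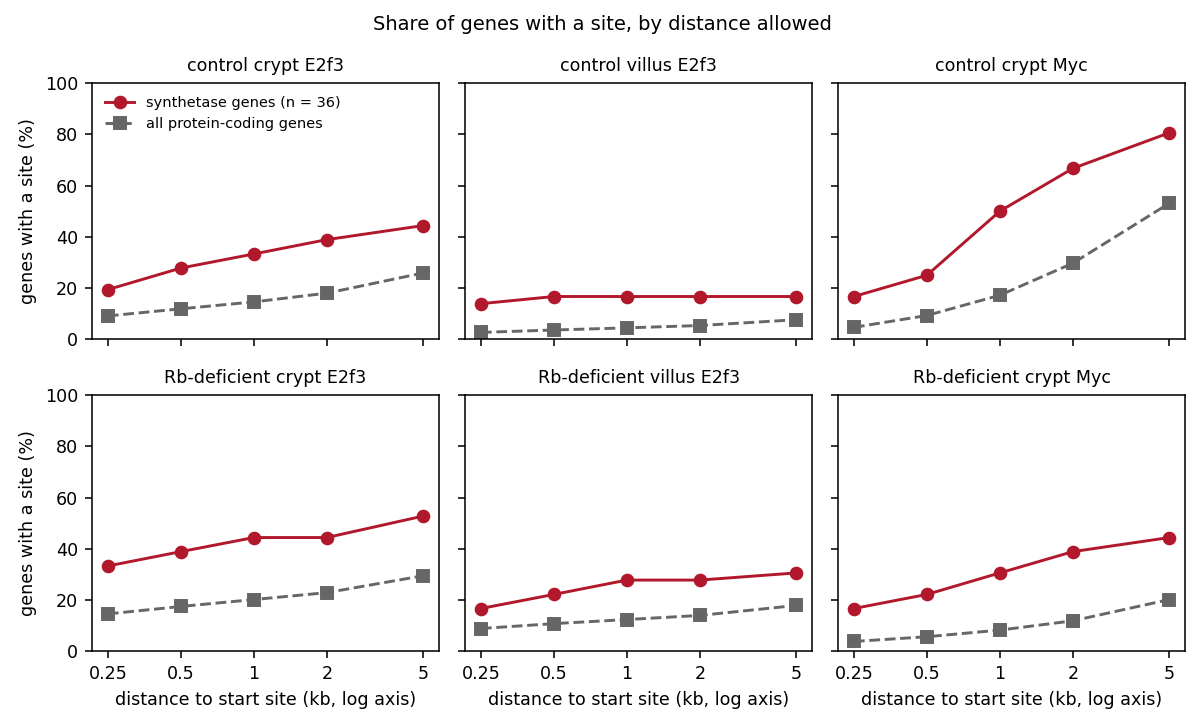
Percentage of the 36 synthetase genes (circles) and of all protein-coding genes (squares) with a site, against the distance to a start site allowed (kb, log axis), in the 4 E2f3 and both crypt Myc libraries. The circles lie above the squares at each of the 5 distances, and the control villus E2f3 line is flat from 0.5 kb on.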

How the data were processed

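The 8 deposited lists, 1 per library, hold 1-bp binding events with a score by the authors between 2 and 999. Per the file names, the events were called by GEM on merged data with duplicate reads kept and overlap MACS2 peaks. Per the submitters' processing notes, Bowtie2 2.2.1, MACS2 2.0.10 and mm9 were used. The sources used here do not give the GEM version, the thresholds, what was merged or the read numbers. Deposited positions count from 0 (an E2F motif's centre lay at a median of 1 bp from them), so 1 was added.

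Start sites (45974) of protein-coding transcripts came from GENCODE M1 and sequence from NCBIM37, the assembly of mm9. A gene's best site was the highest-scored within 1 kb of a start. Motifs were searched within 50 bp on both strands, and promoter windows were 501 bp. Stretches of 41 bp were cut to 29 bp in exons and untranslated regions. None is shown from chromosome 18, which holds Hars, Hars2, Lars and Nars. Shares carry exact 95% intervals from SciPy 1.17.1. With 1 library per group, no test was made. Tables were computed with Python 3.11.15 and pandas 2.3.3, and the steps were tested on simulated data.

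Values were to be given in every library for genes with an E2f3 site in at least 3 E2f3 libraries, a Myc site in Rb-deficient crypt, or an E2f3 site in only 1 list of a genotype pair. Stretches were to be shown for the 6 highest E2f3 and 4 highest Myc scores, the latter in Rb-deficient crypt. One gene that met the rule is left out of the genes described and is not reported here. The genes, the lists and these rules were chosen with earlier results of these data known. Alternatives changed the distance, start sites, score minimum, list length and motif.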

Additional observations from a re-analysis of the deposited data

How the results depend on the processing

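Of 280 results recomputed under another setting, 241 stayed within 1.5 times the reported count or, for shares, within their interval, and 39 moved. Giving a site to the nearest gene alone, using starts of all transcripts and using the most upstream start moved none, and of 73 gene sites 69 were the same when the nearest site was taken. The cause of the changes was not tested beyond the settings' construction, under which fewer or more sites are used.

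Within 250 bp, the genes with a site were 7 in control crypt E2f3 (15% of cytosolic), 6 in Rb-deficient villus E2f3, 6 in control crypt Myc (15% of cytosolic, 18.8% of mitochondrial) and 6 in Rb-deficient crypt Myc. Within 500 bp, control crypt Myc had 9 (18.8% of mitochondrial). Within 2 kb, Rb-deficient villus Myc had 1. Within 5 kb, control crypt Myc had 29 (90% of cytosolic) and Rb-deficient villus Myc 1.

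With scores of at least 10, Rb-deficient villus E2f3 had 6 genes, Rb-deficient crypt Myc 7, and Rb-deficient crypt E2f3 30% of cytosolic genes. Genes in 1 list of a pair were then 1 for control villus E2f3 and 2 for Rb-deficient villus E2f3 against each other, and 2 for Rb-deficient crypt Myc against control. With every list shortened to the 4119 highest-scored sites, the genes were 3 in control crypt E2f3 (5% of cytosolic), 5 in Rb-deficient crypt E2f3 (10% of cytosolic), 6 in Rb-deficient villus E2f3, 0 in control crypt Myc (0% of both groups) and 3 in Rb-deficient crypt Myc (10% of cytosolic, 6.25% of mitochondrial).

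At equal list length within a pair, the genes in 1 list were 3 for Rb-deficient against control villus E2f3, 2 for control crypt against villus E2f3 and 3 the other way, 3 for Rb-deficient crypt against villus E2f3 and 2 the other way, and 1 for control against Rb-deficient crypt Myc. With a partner site allowed within 5 kb, 0 genes were left in control villus E2f3 against crypt. With the wider E2F pattern 100% of control villus E2f3 sites had it, and within 20 bp 0% of control crypt Myc sites had the E-box.

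No paired analysis was possible because each group had 1 library. Depth is unknown, so a gene missing from a list is not shown to be unbound.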
